A study of Mus musculus with 24 samples.

Results

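Bdh1, Oxct1, Acat1 and Bdh2 are 4 genes of ketone body use, taken by name from the 54532 genes counted in mouse gastrocnemius, a mixed hind limb muscle made mostly of fast fibres. The members were chosen by name, and Bdh1 was selected on its CPM difference between female active pain and female sedentary pain samples, so for all 4 genes that contrast, and its difference between the sexes, are given as a description with no test. All 4 genes had counts in every one of the 24 samples and passed the filter on low counts in both sexes.

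The samples came from the left gastrocnemius of wild-type C57/BL6 mice and formed 6 groups of 4, from the 2 sexes and 3 conditions. Control animals were sedentary and had 2 injections of 20 µl of saline at pH 7.2 into the muscle, 5 days apart. Sedentary pain animals had the same injections at pH 5.0, and the second injection directly followed 6 min of muscle contraction driven by electrical stimulation. In the active pain groups the mice had running wheels for 8 weeks before the same acid injections and contraction. The labels give 24 h as the time point of every sample. Since the controls were spared both the acid and the contraction, these cannot be told apart. Active and sedentary pain groups differed in the running wheels, and no group ran without acid and contraction. The labels do not give the animals' age or say outright that each library is a separate animal, so p-values measure the spread between these samples.

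Ketone bodies are small acids that the liver makes from fatty acids and that muscle, heart and brain burn. In the mitochondria of the using tissue, the Bdh1 enzyme oxidises beta-hydroxybutyrate to acetoacetate, the Oxct1 enzyme passes coenzyme A from succinyl-CoA to acetoacetate, and the Acat1 thiolase splits acetoacetyl-CoA into acetyl-CoA for the citric acid cycle. The Oxct1 step is the one that liver lacks. Acat1 also takes part in the breakdown of isoleucine. Bdh2 is a cytosolic dehydrogenase that can act on beta-hydroxybutyrate and is also known for making a compound that binds iron. In muscle, endurance training and oxidative fibres are known for high ketone body use.

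On GRCm38 with the GENCODE M21 annotation, all 4 genes are protein coding. Bdh1 (ENSMUSG00000046598) lies at chr16:31422280-31458901 on the plus strand and Oxct1 (ENSMUSG00000022186) at chr15:4026383-4155344 on the plus strand. Acat1 (ENSMUSG00000032047) lies at chr9:53580522-53610382 on the minus strand and Bdh2 (ENSMUSG00000028167) at chr3:135281221-135304426 on the plus strand. Genes on the opposite strand overlap 2 of them. Gm15743 over Bdh1 had at most 16 counts in any sample, BC037032 over Oxct1 at most 66 counts, and Gm15632 over Oxct1 had 0. The strand setting of the counting is not given in the sources used here, so reads of these pairs cannot be told apart without it, though the counts assigned to the partners were few.

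RefSeq start regions, from 250 bases before to 50 bases after an annotated start, were held for 3 of the 4 genes, all but Acat1. The regions of Bdh1 and Oxct1 are shown because both genes were lower together in female sedentary pain muscle, and because Bdh1 has a pair of annotated starts whose transcripts the gene counts pool. All are on the plus strand of GRCm38.p6, written 5′ to 3′, and capitals mark CpG dinucleotides.
Bdh1, first start, chr16:31422047-31422346: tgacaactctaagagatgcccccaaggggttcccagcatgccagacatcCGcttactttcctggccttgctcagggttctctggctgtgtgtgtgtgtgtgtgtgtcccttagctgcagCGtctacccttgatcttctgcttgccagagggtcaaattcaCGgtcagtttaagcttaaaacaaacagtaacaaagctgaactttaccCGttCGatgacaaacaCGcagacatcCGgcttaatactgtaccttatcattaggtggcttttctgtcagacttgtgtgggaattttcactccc
Bdh1, second start, chr16:31428503-31428802: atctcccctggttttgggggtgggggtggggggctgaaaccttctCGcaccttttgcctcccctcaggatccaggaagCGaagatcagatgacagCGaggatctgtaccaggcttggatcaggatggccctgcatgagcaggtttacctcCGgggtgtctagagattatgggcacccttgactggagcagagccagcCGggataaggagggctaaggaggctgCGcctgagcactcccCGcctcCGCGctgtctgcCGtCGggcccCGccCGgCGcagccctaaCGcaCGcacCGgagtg
Oxct1, chr15:4026178-4026477: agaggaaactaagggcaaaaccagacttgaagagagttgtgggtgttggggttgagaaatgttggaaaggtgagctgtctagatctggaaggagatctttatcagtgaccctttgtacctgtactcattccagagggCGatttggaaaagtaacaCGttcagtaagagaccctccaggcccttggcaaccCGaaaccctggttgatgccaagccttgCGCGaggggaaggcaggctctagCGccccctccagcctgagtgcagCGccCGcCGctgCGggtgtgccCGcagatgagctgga
The first Bdh1 region had 7 CpG dinucleotides and 48.3% GC, the second 17 and 63.7%, and the Oxct1 region 11 and 55.3%. Over 32851 mouse start regions of the same length, the medians were 7 CpG dinucleotides and 52.7% GC. The Bdh2 region, at chr3:135280971-135281270, had 6 CpG dinucleotides and 48.7% GC. Searched on both strands, none of the 4 regions held TCAAGGTCA, an element bound by estrogen-related receptors, which 0.423% of all regions held. None held the direct repeat of AGGTCA bound by peroxisome proliferator-activated receptors, found in 0.0396% of all regions, or the palindrome of nuclear respiratory factor, found in 0.971%. The first and the second motif share the letters AGGTCA.

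Libraries held 17612139 to 34039699 counts. Values are CPM, counts scaled to a common library size with TMM factors (trimmed mean of M-values), and levels are compared between genes only per kilobase of exon. The 8 skeletal muscle fibre markers were present in every sample, at 85809 to 196828 CPM in sum. The 4 hepatocyte markers reached no more than 4.22 CPM in sum. Male sedentary pain replicate 1 stood apart from its group, with a summed level of 7 neutrophil markers of 300.3 CPM against at most 2.69 CPM in the other 3 samples, and with a mitochondrially encoded share of 4.53% of counts. Male active pain replicate 2 had 78.8 CPM of neutrophil markers against at most 8.27 CPM in its group. Values of the 4 genes that moved most without 1 of these samples are given both ways.

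Per kilobase, Oxct1 had the highest median level over the 24 samples, 90.8 CPM per kilobase, above 97.4% of the genes tested. Acat1 followed at 53.1 CPM per kilobase, above 95.6% of genes. Bdh1, the enzyme of the first step, was far lower at 3.09 CPM per kilobase, and Bdh2 stood at 0.233 CPM per kilobase, above only 14.5% of genes. The spread across samples ran in another order. From the lowest to the highest of 24 samples the CPM differed 25.1-fold for Bdh1, 3.83-fold for Oxct1, 2.76-fold for Acat1 and 2.46-fold for Bdh2. Counting error at the median count was 5.45% for Bdh1 (336.5 counts), 1.05% for Oxct1, 1.41% for Acat1 and 19.8% for Bdh2 (25.5 counts), so precision was limited by depth mainly for Bdh2.

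**Figure D1:**
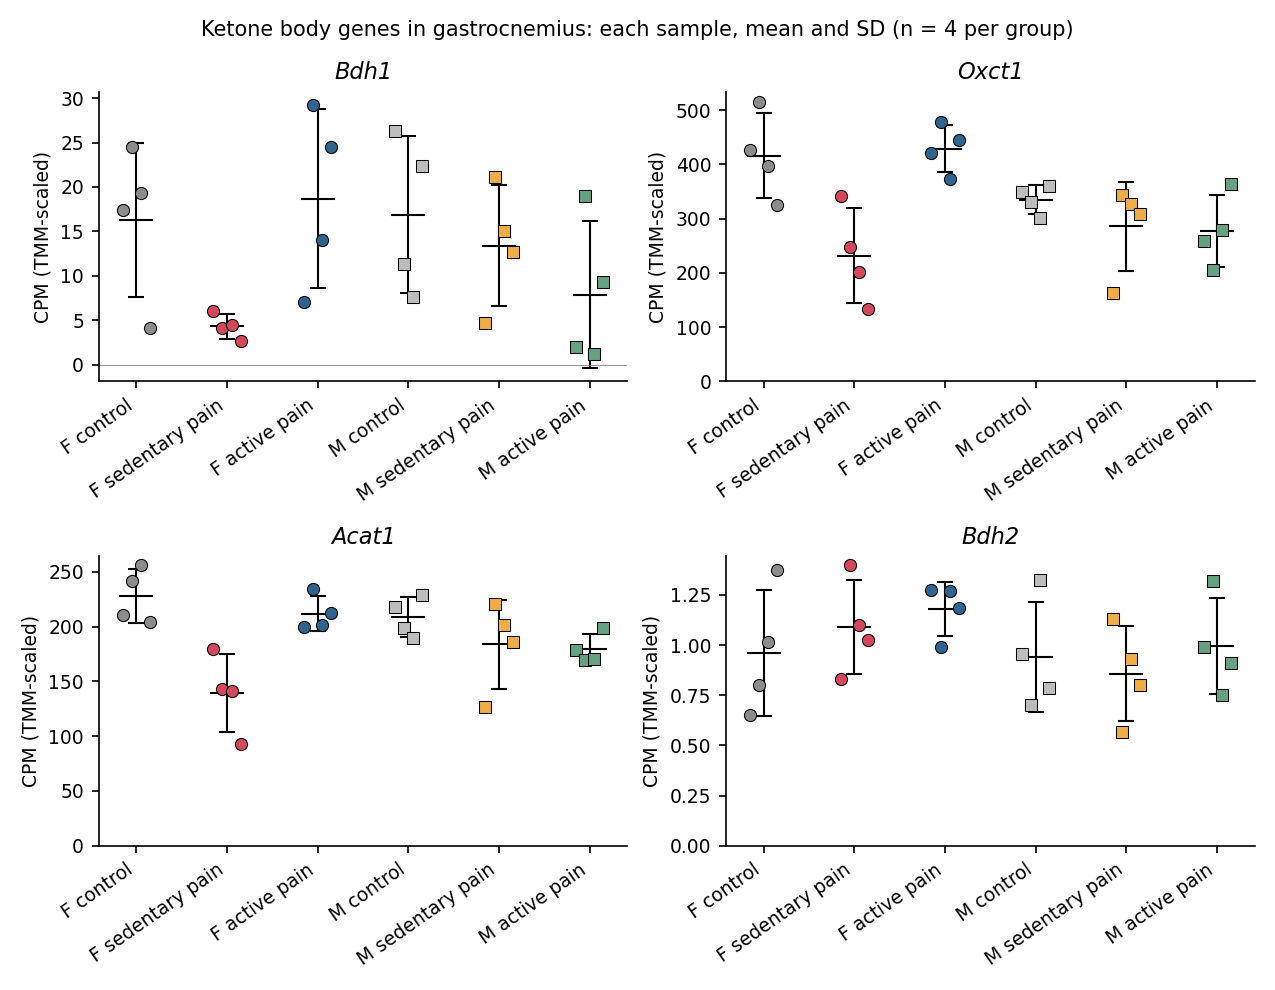
CPM (TMM-scaled, linear axis from 0) of Bdh1, Oxct1, Acat1 and Bdh2 in each of the 24 samples, by group (F female, M male), with the mean and SD of the 4 samples in black. Female sedentary pain samples lie at 2.61 to 6.05 CPM for Bdh1, below all 4 female active pain samples, and Bdh2 stays between 0.569 and 1.40 CPM in every group.

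Bdh1 in female controls stood at 17.4, 24.4, 19.3 and 4.07 CPM in replicates 1 to 4. In female sedentary pain it stood at 6.05, 4.15, 4.41 and 2.61 CPM, and in female active pain at 7.01, 29.2, 14.02 and 24.5 CPM. The sedentary pain samples were uniformly low, 1 control (replicate 4) was as low as they were, and every active pain sample was above every sedentary pain sample. In males, controls had 26.2, 11.3, 7.60 and 22.3 CPM. Male sedentary pain samples had 4.64, 21.2, 15.1 and 12.7 CPM, and male active pain samples 1.98, 19.0, 1.16 and 9.34 CPM. The male groups overlapped throughout, and the lowest Bdh1 values of the data were those of male active pain replicates 1 and 3.

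Oxct1, the step that commits acetoacetate to oxidation, stood at 427, 514, 398 and 325 CPM in female controls. In female sedentary pain the values were 342, 248, 201 and 134 CPM, and in female active pain 421, 477, 374 and 444 CPM. All sedentary pain samples but replicate 1 were below the lowest control, and all 4 were below the lowest active pain sample. Male controls had 349, 330.1, 301 and 361 CPM, male sedentary pain 164, 344, 326 and 309 CPM, and male active pain 259, 205, 279 and 364 CPM. Male controls kept to a narrow range, and the single low male sedentary pain value was that of replicate 1, the sample that stood apart.

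Acat1, the thiolase of the last step, stood at 210.2, 242, 256 and 204 CPM in female controls. In female sedentary pain it stood at 179.6, 143, 141 and 92.7 CPM, and in female active pain at 199.9, 234, 201 and 212 CPM. All 4 sedentary pain samples were below every female control and every female active pain sample. Male controls had 218, 199, 189.6 and 229 CPM, male sedentary pain 127, 221, 202 and 186 CPM, and male active pain 179, 169, 170.4 and 199 CPM. As for Oxct1, the low male sedentary pain value was that of replicate 1.

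Bdh2 ranged from 0.569 to 1.40 CPM (15 to 45 counts), and its group means lay between 0.857 and 1.18 CPM. No group of Bdh2 stood clear of another. When the 6 groups were put in order of mean level, neighbouring groups overlapped for each of the 4 genes. The gap between neighbours was smaller than the larger of their SDs, except between male control and female control for Oxct1 and between female sedentary pain and male active pain for Acat1. The order for Bdh1 was female sedentary pain (4.31 ± 1.41 CPM, mean ± SD, n = 4), male active pain (7.87 ± 8.28), male sedentary pain (13.4 ± 6.83), female control (16.3 ± 8.68), male control (16.9 ± 8.84) and female active pain (18.7 ± 10.04).

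In females, the 3 mitochondrial genes were lower in sedentary pain than in control muscle, and Bdh2 was not distinguishable from control. Bdh1 fell by 1.93 ± 0.54 on the log2 scale (± SE, a 3.82-fold lower level, adjusted p = 0.0208). Oxct1 fell by 0.86 ± 0.25 (1.82-fold lower, adjusted p = 0.0229) and Acat1 fell by 0.73 ± 0.18 (1.66-fold lower, adjusted p = 0.0124). The difference of Bdh2 was 0.14 ± 0.27 (adjusted p = 0.690), with a 95% interval from -0.44 to 0.73. P-values are from edgeR's quasi-likelihood test, adjusted over all 14511 genes tested in females. In this comparison 33.5% of all genes passed the threshold of 0.05 and 13.9% passed it as lower, so a call by itself was common. The median change of the 4 genes was -0.80, beside -0.02 over all genes. The change of Bdh1 was among the lowest 1.18% of all genes, that of Oxct1 among the lowest 9.86% and that of Acat1 among the lowest 13.5%. The comparison uses the same sedentary pain samples as the contrast from which Bdh1 was put forward, so it is not independent of that choice.

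The ranges of Acat1 did not overlap between female sedentary pain and control, which held, as lower, for 11.0% of all genes. Acat1 kept its call with each of the 12 female samples left out in turn. Oxct1 lost it without female control replicate 2 (-0.74, adjusted p = 0.0654). Bdh1 lost it without female control replicate 2 (-1.67, adjusted p = 0.0576) or without female sedentary pain replicate 4 (-1.73, adjusted p = 0.0644). With replicates 1 and 2 of each group alone, the changes were -2.03 for Bdh1, -0.68 for Oxct1 and -0.49 for Acat1, and none passed the threshold.

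Markers of other cells moved with these groups. Beside the calls below, 33.5% of all genes were called in female sedentary pain against control, 13.9% as lower. Where only 2 markers of a list were called lower, the count is too small to set apart from that share. Of 10 macrophage markers, 9 were higher in female sedentary pain, with summed levels of 375 to 3944 CPM against 73.5 to 167 CPM in female controls and 173 to 379.6 CPM in female active pain, and none was at 0. Of 6 neutrophil markers tested, 5 were higher, at 21.4 to 255 CPM in sum against 0.898 to 3.76 CPM in controls. In female active pain the neutrophil markers summed to 4.90, 48.9, 112 and 5.90 CPM, each above every female control. Of 8 adipocyte markers, 7 were lower in sedentary pain, at 130 to 769.7 CPM against 512 to 12906 CPM in controls, where replicates 3 and 4 held 12906 and 8928 CPM. The 8 muscle fibre markers summed to 85809 to 171006 CPM in sedentary pain and 123848 to 191732 CPM in controls, and 2 of them were lower. Of 6 endothelial markers 2 were lower, and their sums of 148 to 174 CPM in sedentary pain lay below the 188 to 211 CPM of controls. Mitochondrially encoded genes took 2.75% to 8.22% of counts in sedentary pain and 8.59% to 11.02% in controls. The part of these shifts in the lower levels of Bdh1, Oxct1 and Acat1 was not tested. Fewer muscle cells in the sample and less RNA of a gene per muscle cell cannot be told apart in bulk tissue.

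Female active pain muscle was close to control muscle for all 4 genes. The differences from control were 0.21 ± 0.51 for Bdh1, 0.05 ± 0.25 for Oxct1, -0.10 ± 0.18 for Acat1 and 0.28 ± 0.27 for Bdh2 on the log2 scale, with adjusted p of 0.838 to 0.965. The 95% interval of Bdh1 ran from -0.91 to 1.33. By edgeR 0.0% of all genes were called here (1020 at an unadjusted p under 0.05, and 131 called by DESeq2), and 0 of the 4 genes had an unadjusted p under 0.05 or a DESeq2 call. The signs of Bdh1 and Oxct1 turned without female active pain replicate 2 (-0.12 and -0.03) or without female control replicate 4 (-0.12 and -0.06). This comparison and the preceding one share the 4 control samples. It also uses the active pain samples of the contrast from which Bdh1 was put forward, so its Bdh1 values are not independent of that choice.

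Set against sedentary pain, the contrast that put Bdh1 forward, female active pain muscle had 4.41-fold more Bdh1 (2.14 ± 0.54 on the log2 scale), 1.88-fold more Oxct1 (0.91 ± 0.25), 1.54-fold more Acat1 (0.63 ± 0.18) and 1.10-fold more Bdh2 (0.14 ± 0.27). These are descriptions with no test. For Bdh1, Oxct1 and Acat1 the 2 groups did not overlap, which held in this direction for 5.42% of all genes. Of all genes 11.9% were called in this comparison, 2.51% as higher.

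**Figure D2:**
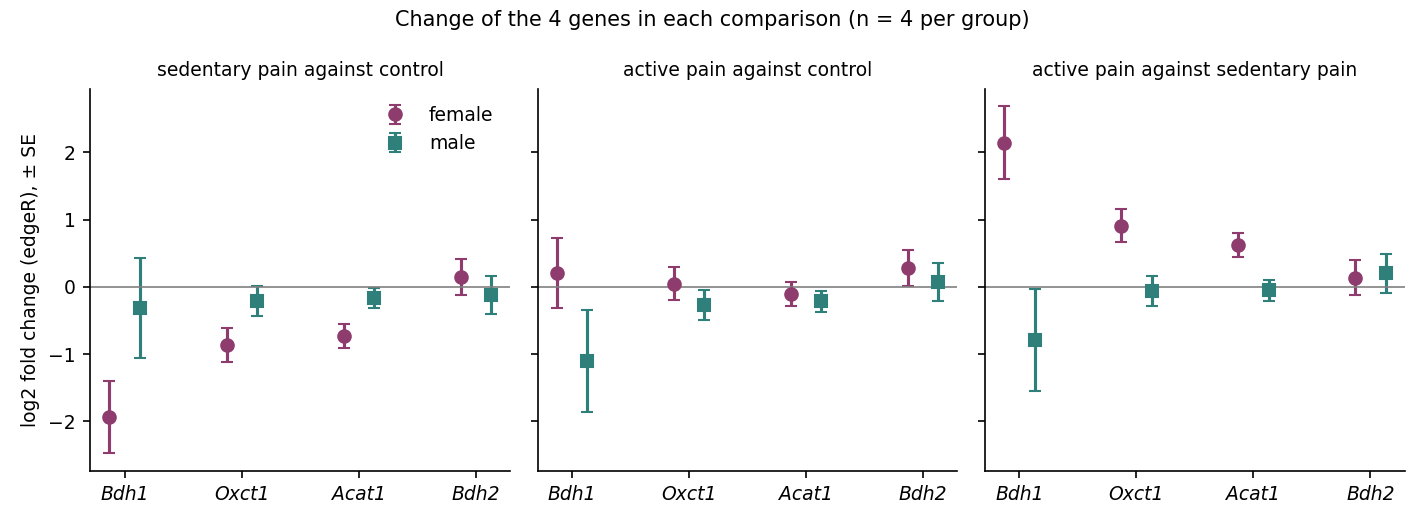
Log2 fold changes (edgeR, vertical axis, ± SE) of the 4 genes in females (circles) and males (squares) for the 3 comparisons within a sex, 4 samples a group. In females Bdh1, Oxct1 and Acat1 lie below 0 in sedentary pain against control (-1.93, -0.86 and -0.73) and near 0 in active pain against control, and the male values of Oxct1 and Acat1 lie between -0.27 and -0.05.

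In males, none of the 4 genes passed the threshold in any comparison. Sedentary pain differed from control by -0.31 ± 0.75 for Bdh1, -0.21 ± 0.23 for Oxct1, -0.17 ± 0.15 for Acat1 and -0.12 ± 0.28 for Bdh2, with adjusted p of 0.654 to 0.820. Without male sedentary pain replicate 1, the values for Bdh1, Oxct1 and Acat1 came to -0.03, -0.02 and -0.03. Bdh1 also depended on other samples, at -0.0068 without male control replicate 1 and -0.60 without male sedentary pain replicate 2. Of all 14404 genes edgeR called 0.0% (1273 at an unadjusted p under 0.05, and 280 by DESeq2), and neither count included any of the 4 genes.

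Male active pain differed from control by -1.10 ± 0.76 for Bdh1, -0.27 ± 0.23 for Oxct1, -0.22 ± 0.15 for Acat1 and 0.08 ± 0.28 for Bdh2, with adjusted p of 0.634 to 0.887. The change of Bdh1, 2.15-fold lower, was among the lowest 0.472% of all genes, yet its 95% interval ran from -2.76 to 0.56. With 1 male sample left out at a time it ranged from -2.01 to -0.72. It was -2.01 (adjusted p = 0.979) without male active pain replicate 2, the sample with neutrophil markers, where Bdh1 was highest in the group, and -0.72 without male active pain replicate 3. Here too 0.0% of all genes were called (1045 at an unadjusted p under 0.05, and 123 by DESeq2), again with none of the 4 genes among them.

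Male active pain differed from male sedentary pain by -0.79 ± 0.76 for Bdh1, against 2.14 ± 0.54 in females. Without male active pain replicate 2 the male value was -1.70, and it ranged from -1.70 to -0.42 with 1 male sample left out at a time. The male values were -0.06 ± 0.23 for Oxct1, -0.05 ± 0.15 for Acat1 and 0.20 ± 0.29 for Bdh2, all with an adjusted p of 1.0. Without male sedentary pain replicate 1 they were -1.07 for Bdh1, -0.25 for Oxct1 and -0.19 for Acat1 (adjusted p = 0.608 each). By edgeR 0.0% of all genes were called, with 121 at an unadjusted p under 0.05, none of the 4 genes among them, and 0 by DESeq2. The difference between the sexes in this contrast was 2.89 ± 0.99 for Bdh1, 0.94 ± 0.34 for Oxct1, 0.64 ± 0.23 for Acat1 and -0.09 ± 0.38 for Bdh2, a description with no test. For Bdh1 it was 3.81 without male active pain replicate 2, and 2.53 to 3.81 over the 24 samples left out in turn.

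The test of whether the change from control to sedentary pain differed between the sexes, in a fit of all 24 samples, did not pass for any of the 4 genes. The female change minus the male change was -1.58 ± 0.97 for Bdh1 (adjusted p = 0.638), -0.62 ± 0.34 for Oxct1 (adjusted p = 0.597), -0.53 ± 0.23 for Acat1 (adjusted p = 0.486) and 0.30 ± 0.38 for Bdh2 (adjusted p = 0.801). Acat1 alone had an unadjusted p under 0.05 (0.0353). Calls in females and none in males therefore do not show that the sexes differed. For Bdh1 the test is not independent of the choice of that gene, because it uses the same female sedentary pain samples. Without male sedentary pain replicate 1 the differences were -1.87, -0.81 and -0.67 for Bdh1, Oxct1 and Acat1, with adjusted p of 0.216, 0.121 and 0.0769. Of all 15103 genes 0.0% were called (1446 at an unadjusted p under 0.05, and 21 by DESeq2, none of them one of the 4).

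For active pain against control, the female change minus the male change was 1.30 ± 0.96 for Bdh1, 0.32 ± 0.34 for Oxct1, 0.12 ± 0.23 for Acat1 and 0.21 ± 0.38 for Bdh2, with an adjusted p of 1.0 each. Without male active pain replicate 2 the Bdh1 value was 2.22, the highest of a range from 0.94 with 1 sample left out. The Bdh1 value is not independent of the choice of that gene, because the same female active pain samples were used. Here 0.0% of genes were called by edgeR, 307 had an unadjusted p under 0.05, none of them one of the 4, and DESeq2 called 3 others. Between male and female controls, 2.83% of genes were called and none of the 4. The male minus female difference was 0.05 ± 0.68 for Bdh1, -0.31 ± 0.24 for Oxct1, -0.13 ± 0.17 for Acat1 and -0.04 ± 0.27 for Bdh2, with adjusted p of 0.543 to 0.974.

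The genes around these 4 were described through 7 lists of 64 genes, of which 59 were tested in each sex. In female sedentary pain against control, 33 of the 59 were lower and 1 was higher, and the median change was -0.63 beside -0.02 over all genes, 13.9% of which were lower. The 8 skeletal muscle fibre markers had a median change of -0.51 and the 10 fast fibre markers one of -0.43 in this comparison. The part of shifts in cell content in the list changes was not tested. In all comparisons with 0 calls among these genes the tool was edgeR.

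Of 17 genes of succinyl-CoA formation and the citric acid cycle, which supplies the succinyl-CoA that the Oxct1 enzyme uses and burns the acetyl-CoA that Acat1 yields, 11 were lower and 6 did not pass (median -0.56). Suclg2, a subunit of the ligase that makes and splits succinyl-CoA, had 38.6 ± 10.5 CPM in sedentary pain and 68.5 ± 6.52 CPM in control muscle (-0.84 ± 0.19, adjusted p = 0.0086). Idh3b, of isocitrate dehydrogenase, had 253 ± 93.9 and 453 ± 44.3 CPM (-0.85 ± 0.23, adjusted p = 0.0186). Sdha, of succinate dehydrogenase, had 509.8 ± 172 and 872 ± 89.1 CPM (-0.79 ± 0.22, adjusted p = 0.0193). Sdha lost the call without female control replicate 2 (adjusted p = 0.0524). The count of 11 fell to 3 without female control replicate 2, to 4 without female control replicate 1, to 5 without female sedentary pain replicate 3 or 4, and to 7 without female control replicate 3 or 4. It was 3 with only the 2 groups compared in the fit, and 0 with replicates 1 and 2 alone.

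Breakdown of branched-chain amino acids, which ends in acetoacetate for leucine and uses the Acat1 thiolase for isoleucine, had 16 lower genes of 19 (median -0.75). Mccc1, of the leucine pathway's carboxylase, had 26.8 ± 5.48 CPM in sedentary pain and 53.1 ± 10.2 CPM in control muscle (-1.004 ± 0.17, adjusted p = 0.0032). Bckdhb, of the branched-chain ketoacid dehydrogenase, had 17.4 ± 3.52 and 31.9 ± 5.94 CPM (-0.89 ± 0.17, adjusted p = 0.0046). Acadsb, a short branched-chain acyl-CoA dehydrogenase, had 81.5 ± 18.7 and 144 ± 2.89 CPM (-0.84 ± 0.17, adjusted p = 0.0050). The count stayed between 13 and 17 with each female sample left out, and was 0 with replicates 1 and 2 alone.

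Of the thiolases beside Acat1, Acaa2, of fatty acid oxidation, was lower in female sedentary pain (-0.58 ± 0.19, adjusted p = 0.0343), and it lost that call without each of 5 of the 12 female samples. The cytosolic thiolase Acat2 was lower (-1.66 ± 0.56, adjusted p = 0.0410), with 8 of 12 samples each ending the call when left out. In female controls Acat2 had 11.6 ± 9.90 CPM, a spread nearly as large as its mean, in a group whose replicates 3 and 4 were high in adipocyte markers. The part of adipocyte content in the Acat2 difference was not tested. Of the testis relatives of Oxct1, Oxct2b had 0 counts in every sample, and Oxct2a had 0 counts in 22 samples and no more than 1 count in any.

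Of 6 genes of monocarboxylate transport, through which ketone bodies and lactate cross membranes, Emb was higher in female sedentary pain, at 36.4 ± 29.3 CPM against 2.68 ± 0.91 CPM in control (3.73 ± 0.60, adjusted p = 0.0028). Emb encodes embigin, a partner protein of the transporters. From male controls, the lowest group, to female sedentary pain, the highest, group means ran from 2.23 to 36.4 CPM for Emb and from 89.4 to 2032 CPM for the summed macrophage markers. The part of macrophage content in the Emb difference was not tested. The transporter gene Slc16a1 differed by 0.05 ± 0.17 (adjusted p = 0.843) and the muscle lactate exporter Slc16a3 by -0.09 ± 0.27 (adjusted p = 0.810). Among the receptors, the lactate receptor Hcar1 was lower (-2.80 ± 0.87, adjusted p = 0.0308), and it lost the call without each of 4 of the 12 samples. Of the 4 controls, 2 held 12906 and 8928 CPM of adipocyte markers, whose part in the Hcar1 difference was not tested. The ketone body receptor Hcar2 differed by 1.68 ± 1.18 (adjusted p = 0.272), and Ffar3 had 0 counts in every sample.

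Of 9 regulators of mitochondrial and fatty acid genes, 3 were lower in female sedentary pain (median -0.62). Sirt3, the main mitochondrial deacetylase, differed by -0.68 ± 0.20 (adjusted p = 0.0264), Ppara, the nuclear receptor that drives ketogenic genes in liver, by -2.66 ± 0.80 (adjusted p = 0.0282), and Ppargc1a, the coactivator of mitochondrial genes, by -0.84 ± 0.28 (adjusted p = 0.0396). Without female control replicate 1 or 2, or without female sedentary pain replicate 2 or 4, none of the 9 was called, and without female sedentary pain replicate 1 the count was 5. Ppargc1a lost its call without each of 7 of the 12 female samples (adjusted p up to 0.109).

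In female active pain against control 0 of the 59 genes were called, beside 0.0% of all genes (5 of the 59 at an unadjusted p under 0.05, and 0 by DESeq2), with a median change of -0.03. In female active pain against sedentary pain 18 were higher and 1 lower, beside 2.51% of all genes called higher. The higher genes comprised 6 of the citric acid cycle list (Suclg2 0.74 ± 0.19, adjusted p = 0.0340), 10 of branched-chain amino acid breakdown (Ivd 0.80 ± 0.17, adjusted p = 0.0328) and 2 regulators, Sirt3 (0.85 ± 0.20, adjusted p = 0.0328) and Esrrg (1.98 ± 0.59, adjusted p = 0.0496). Emb was the lower one (-2.55 ± 0.56, adjusted p = 0.0328). These calls were lost with any of several samples left out. No gene of these 3 lists was called without female active pain replicate 1, 2 or 4 or without female sedentary pain replicate 3 or 4. Without female sedentary pain replicate 1 the counts were 13, 16 and 4. Emb lost its call without each of the same 5 samples (adjusted p up to 0.101), and Esrrg lost its call without each of 11 of the 12 female samples (adjusted p up to 0.150). Over the 12 samples left out in turn, the changes kept their sign. They were 0.56 to 0.87 for Suclg2, 0.62 to 0.88 for Ivd, 0.67 to 1.01 for Sirt3, 1.61 to 2.30 for Esrrg and -2.90 to -1.99 for Emb. The count of all genes called ranged from 0 to 4316 in these fits. Without any 1 of the female controls or without female active pain replicate 3, the citric acid cycle count was 1 or 2 and the regulator count 1, and without female sedentary pain replicate 2 the regulator count was also 1. The branched-chain count was 4 without female control replicate 1 or 4 and 5 without female control replicate 2. The comparison shares the sedentary pain samples with sedentary pain against control.

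In males, 0 of the 59 genes were called in each of the 3 comparisons, beside 0.0% of all genes. At an unadjusted p under 0.05 were 2, 5 and 0 in sedentary pain against control, active pain against control and active against sedentary pain, with 0 called by DESeq2. The medians were -0.12, -0.09 and -0.03, beside -0.0081, -0.0014 and -0.035 over all genes. The difference between the sexes in these genes was tested itself in the fit of all 24 samples. For sedentary pain against control edgeR called 0 of 60 genes (16 at an unadjusted p under 0.05, lowest adjusted p = 0.432, and 0 by DESeq2), with a median female minus male change of -0.45. For active pain against control it called 0 of 60 (4 at an unadjusted p under 0.05, 0 by DESeq2, median 0.07). For active against sedentary pain it called 0 of 60 (30 at an unadjusted p under 0.05, 1 by DESeq2, median 0.51). Over all 15103 genes edgeR called 0.0% in each of these 3 tests, so the counts of 0 say little about these lists. At an unadjusted p under 0.05 were 1446, 307 and 2224 of all genes, in the same order. The calls in females and the 0 calls in males therefore do not show that the sexes differed in these lists. Between control groups 4 of 60 genes were lower in males (1.28% of all genes were), namely Acat2 (-2.25 ± 0.46, adjusted p = 0.0077), Aacs (-2.69 ± 0.65, adjusted p = 0.0247), Echs1 (-0.80 ± 0.11, adjusted p = 1.9e-04) and Bckdhb (-0.78 ± 0.14, adjusted p = 0.0029). Acat2 lost the call without female control replicate 3, and Aacs, a cytosolic enzyme that activates acetoacetate for lipid synthesis, without each of 5 samples. Adipocyte markers summed to 114 to 849 CPM in male controls against 512 to 12906 CPM in female controls, and their part in these differences was not tested.

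**Figure D3:**
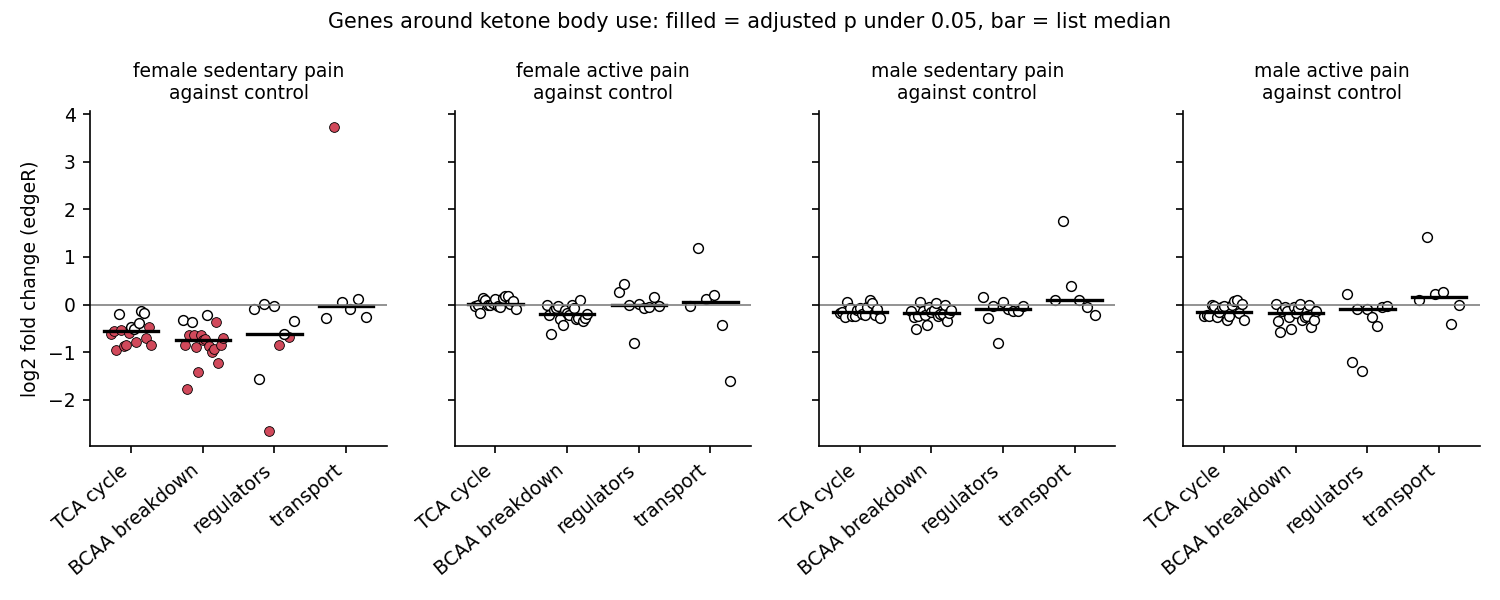
Log2 fold changes against control (edgeR, vertical axis) of the genes of 4 lists around ketone body use in female and male sedentary and active pain (BCAA, branched-chain amino acids; TCA, citric acid cycle). Each point is a gene, filled where the adjusted p is under 0.05, and bars are list medians. In female sedentary pain 11 of 17 citric acid cycle genes and 16 of 19 branched-chain genes are lower. The test of the sex difference called 0 of 60 genes, beside 0.0% of all genes.

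The 4 genes did not share 1 pattern over the 24 samples. Likeness was measured as Pearson's r of log2 CPM against 11150 genes; the samples share the conditions and the shifts in cell markers given above, and r is a description. The lists of closest genes depend on the measure: of the 5 genes highest by Pearson's r, 3 were also among the 5 highest by Spearman's rho for Bdh1 and for Bdh2, and 2 for Oxct1 and for Acat1. Oxct1 and Acat1 ran together (r = 0.92), Bdh1 less so with Oxct1 (0.62) and Acat1 (0.68), and Bdh2 had r of -0.29 to -0.21 with the other 3. After the group means were taken away, Oxct1 and Acat1 still had r = 0.90, and Bdh1 had 0.43 with Oxct1 and 0.545 with Acat1. Bdh2 then had -0.54 with Oxct1, -0.40 with Acat1 and -0.24 with Bdh1.

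The genes most like Bdh1 were Myom3, a protein of the sarcomere's M-band (r = 0.92), Klhl34 (0.91), the nuclear receptor Esrrb (0.91), the palmitoyltransferase Zdhhc23 (0.91) and Fabp3, the heart and muscle fatty acid binding protein (0.91). Myom3 had 29.3 ± 15.9 CPM in female controls, 8.26 ± 5.02 CPM with sedentary pain, 33.5 ± 18.6 CPM with active pain and 8.29 ± 6.54 CPM in male active pain. Fabp3 covered a smaller range, 122 to 293 CPM. Within groups the closest were Ldhb, the lactate dehydrogenase subunit of oxidative muscle and heart (r = 0.94), Arpp21 (0.92) and Fabp3 (0.92).

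**Figure D4:**
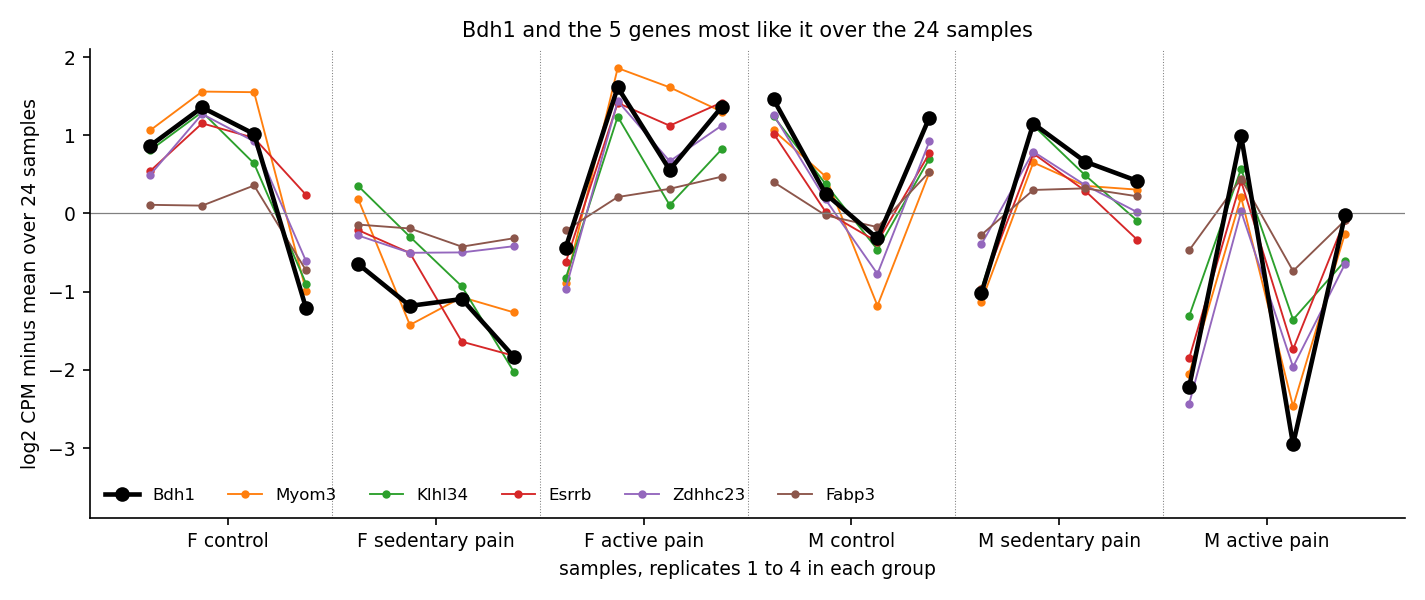
Log2 CPM minus each gene's mean over the 24 samples (vertical axis) for Bdh1 (black) and the 5 genes most like it, with replicates 1 to 4 side by side in each group; lines only join the points of a group. All 6 genes are above their mean in female control replicates 1 to 3 and below it in male active pain replicates 1 and 3, where Bdh1 was at 1.98 and 1.16 CPM.

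Oxct1 was most like Got2, the mitochondrial aspartate aminotransferase (r = 0.95), Clpb (0.95), Clip4 (0.95), Suclg2 (0.95) and Immt, of the inner membrane's cristae complex (0.94). Acat1 was most like Hadhb, the thiolase subunit of the mitochondrial trifunctional protein (0.98), then Uqcrc2 (0.96), Pmpcb (0.96), Etfa (0.96) and Acadm, of medium-chain fatty acid oxidation (0.96). The closest to Bdh2 were Wdr34 (0.78), Sema6b (0.76), Ramp2 (0.72), Nsmf (0.71) and Cracr2b (0.71), with 25.5 counts of Bdh2 at the median limiting r.

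Slow fibre markers varied between samples beside Bdh1. The 8 markers summed to 359, 999.7, 1306 and 345 CPM in female controls, 342, 315, 220.4 and 143 CPM in female sedentary pain, and 92.7, 725, 3394 and 1478 CPM in female active pain. In males they summed to 515, 233, 66.6 and 424 CPM in controls, 277, 223, 199 and 207 CPM in sedentary pain, and 45.2, 224, 42.9 and 124 CPM in active pain. None of the 8 passed the threshold in any comparison, but edgeR called 0.0% of all genes in female active pain against control and in each male comparison. Their median log2 change was -1.54 in female sedentary pain against control, 0.88 in active pain against control and 2.51 in active against sedentary pain. In males the same medians were -0.34, -1.73 and -1.46. Male active pain replicates 1 and 3, lowest in Bdh1, were also lowest in slow fibre markers. Female sedentary pain samples had less Bdh1 (2.61 to 6.05 CPM) than male sedentary pain replicates 2 to 4 (12.7 to 21.2 CPM), whose slow fibre sums of 199 to 223 CPM lay within the female sedentary pain range. Male sedentary pain replicate 1 also lay in that range for slow fibre markers (277 CPM), but its Bdh1 (4.64 CPM) was as low as in the female samples. The part of fibre type in the Bdh1 differences was not tested.

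**Figure D5:**
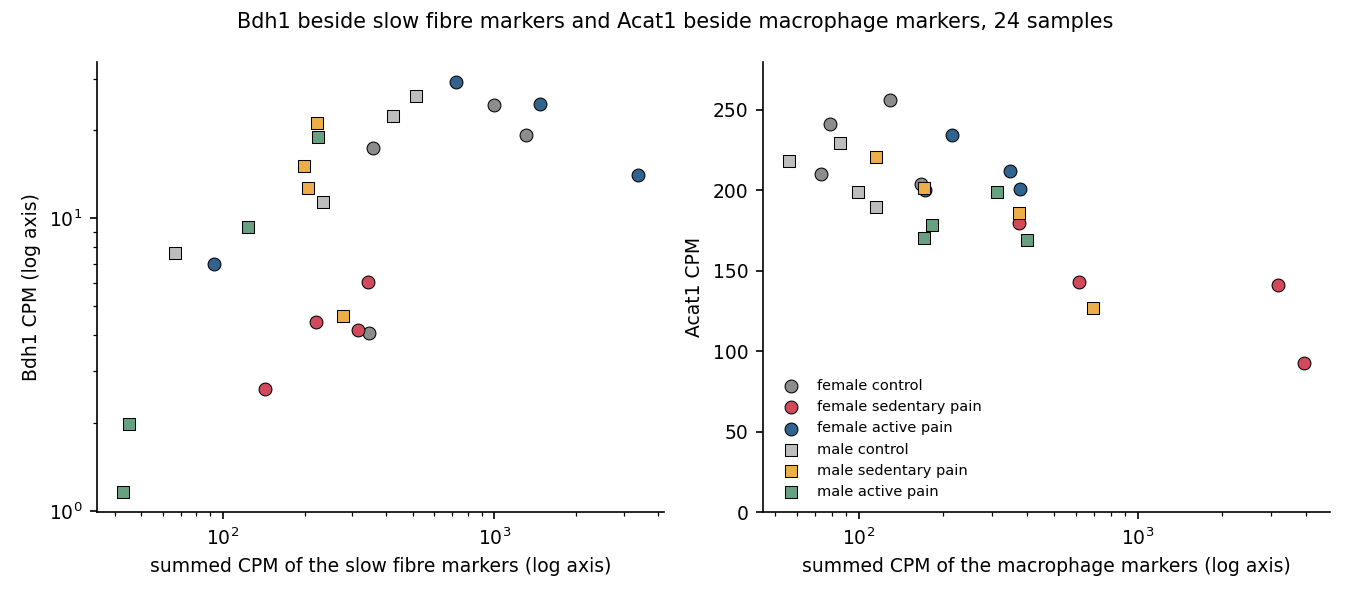
Left, Bdh1 CPM against the summed CPM of 8 slow fibre markers (both axes log); right, Acat1 CPM (linear axis from 0) against the summed CPM of 10 macrophage markers (log axis), 24 samples coloured by group, circles female and squares male. The 4 female sedentary pain samples have 375 to 3944 CPM of macrophage markers and 92.7 to 179.6 CPM of Acat1, and male sedentary pain replicate 1, at 693 CPM of macrophage markers, has 127 CPM of Acat1. Acat1 is at 201 CPM in female active pain replicate 3 (379.6 CPM of macrophage markers), 186 CPM in male sedentary pain replicate 4 (376 CPM) and 169 CPM in male active pain replicate 2 (402 CPM).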

How the data were processed

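RNA was extracted from left gastrocnemius, and TruSeq stranded libraries were read on a NovaSeq as 100-base paired ends, per the labels' protocols. The deposited files hold raw counts per Ensembl gene, whole numbers with no normalization. HISAT2 2.1.0, Salmon 0.9.1, featureCounts, DESeq2 1.24.0, mm10 and GRCm38.p6 are named in the submitters' processing notes, with no role stated. Symbols and positions came from GENCODE M21 (54495 of 54532 genes).

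Counts were scaled by TMM and filtered with filterByExpr (minimum count 10). The quasi-likelihood F test of edgeR 4.0.16 (R 4.3.3, robust, two-sided) was fitted on 12 samples per sex, or on all 24 for sex differences and control groups, with Benjamini-Hochberg adjustment over all genes at 0.05 and 95% intervals from the test's t quantiles. Depth was 17612139 to 34039699 counts per library. DESeq2 1.42.0 and other alternatives are given in the closing section. The 4 genes and all lists were chosen with earlier results of these data known. Named from each pathway list and comparison were up to 3 called genes with the smallest p-values; for likeness, the 5 genes with the highest r (for Bdh1 also 3 after removing group means) among genes whose log2 CPM averaged at least 1. Other genes named with values from the transport and receptor lists were picked after their values were seen. Some genes of the list of ketone body formation are not reported here.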

Additional observations from a re-analysis of the deposited data

How the results depend on the processing

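RLE scaling, no robust step, a mean count of at least 50, removal of mitochondrially encoded genes, all 24 samples in 1 fit, the library-number split and DESeq2 changed no call or sign of the 4 genes in any comparison tested, except that Bdh2 was removed by the mean count of at least 50 and has no value there. In female sedentary pain against control, Bdh1 lost its call with replicates 1 and 2 only (-2.03, adjusted p = 0.154) and with replicates 3 and 4 only (-1.74, adjusted p = 0.122), Oxct1 with only the 2 groups compared (-0.85, adjusted p = 0.058) and with replicates 1 and 2 only (-0.68, adjusted p = 0.177), and Acat1 with replicates 1 and 2 only (-0.49, adjusted p = 0.231); these settings use fewer samples. With 1 sample left out at a time, Bdh1 ranged from -2.26 to -1.67, Oxct1 from -1.10 to -0.66 and Acat1 from -0.87 to -0.56.

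Values that never passed the threshold turned sign as follows, and the cause was not tested. With replicates 1 and 2 only, Bdh1 (-0.21) and Oxct1 (-0.087) did so in female active pain against control, and Bdh2 (0.032) in male sedentary pain against control. With replicates 3 and 4 only, Bdh2 did so in female sedentary pain against control (-0.19), male active pain against control (-0.34) and male active against sedentary pain (-0.069), and Oxct1 in the last of these (0.0060). The ranges with 1 sample left out crossed 0 for Bdh1 (-0.12 to 0.46) and Oxct1 (-0.056 to 0.15) in female active pain against control, Bdh2 in male sedentary pain (-0.29 to 0.088) and male active pain (-0.083 to 0.29) against control, Acat1 (-0.19 to 0.055) and Oxct1 (-0.25 to 0.067) in male active against sedentary pain, and Bdh1 (-0.25 to 0.32) and Bdh2 (-0.24 to 0.21) between control groups. Among the values given with no test, Bdh2 crossed 0 in female active against sedentary pain (-0.0016 to 0.24) and in its sex difference (-0.25 to 0.076). Acat2, by contrast, passed the threshold in the main fit of female sedentary pain against control (-1.66). With replicates 1 and 2 only it was 0.17. The controls of that pair were low in adipocyte markers, whose part in this was not tested.

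The count of all genes called in female sedentary pain against control (4867) was 2847 with only the 2 groups compared, 238 with replicates 1 and 2 only, and 2486 to 6674 with 1 sample left out. The lowest of these was without female sedentary pain replicate 4, and it also fell by over 1.5 times without female control replicate 1 (3107), 2 (2864) or 4 (3161). Female active against sedentary pain (1730) gave 174 with no filter on low counts, 2745 with the library-number split, 3135 with DESeq2, 0 with only the 2 groups compared or with replicates 1 and 2 only, and 0 to 4316 with 1 sample left out. Female active pain against control gave 131 with DESeq2 and 155 with replicates 3 and 4 only. DESeq2 gave 280 and 123 for male sedentary and active pain against control, 741 between controls, and 21, 3 and 108 for the sex differences of sedentary pain, active pain, and active against sedentary pain. With edgeR, the count between controls (427) was 198 to 622 with 1 sample left out, and fell by over 1.5 times without female control replicate 3 (198) or 4 (239) or male control replicate 1 (230), 2 (227) or 4 (227). The edgeR counts of the 3 sex differences, each 0, ranged from 0 to 18, 0 to 1 and 0 to 2174 with 1 sample left out; 2174 was without male sedentary pain replicate 1 and 622 without female sedentary pain replicate 1.

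Replicate numbers recur in every group, but the labels do not say what they stand for. Same-numbered samples' deviations had a mean correlation of 0.103 in females (-0.305 to 0.394 over 12 pairs) and 0.0065 in males, and 3 of 12 samples in each sex correlated best with their own number, so the numbers were not taken as pairs. With the replicate block, Bdh1, Oxct1 and Acat1 came to -1.82, -0.90 and -0.75 in female sedentary pain against control (adjusted p = 0.040, 0.017 and 0.018), 3739 and 1629 genes were called in female sedentary pain against control and against active pain, and no call of the 4 genes changed. A number in each library's name, 20 or lower in replicates 1 and 2 and 25 or higher in replicates 3 and 4, defined the library-number split. Depth limits Bdh2, with 25.5 counts at the median.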
